A study of Mus musculus with 11 samples.

Results

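A set of 9 miRNAs typical of tissues outside the brain was followed in the cortex of mice after stroke or sham surgery. They were found by name among the 1907 mature miRNA names of the count tables, where all 9 were listed. They fall into muscle miRNAs (mmu-miR-1a-3p, mmu-miR-133a-3p and mmu-miR-206-3p), liver and gut miRNAs (mmu-miR-122-5p, mmu-miR-192-5p and mmu-miR-194-5p) and miRNAs of epithelia and endocrine cells (mmu-miR-203-3p, mmu-miR-205-5p and mmu-miR-375-3p). The comparison asks whether small RNA from blood plasma, or from tissue carried over at dissection, differed between the operated groups. The rule used names alone and no measured value, but the set was chosen with earlier results of these data known. The prefix mmu, for mouse, is left out in what follows.

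The libraries came from male Balb/cOlaHsd mice, labelled as 3 months old, whose brains were taken 3 days after surgery. In the 5 mice with permanent middle cerebral artery occlusion (pMCAO), the left artery was reached through a hole drilled in the temporal bone and closed by heat, with no reperfusion. The 6 sham mice went through the same opening of the bone and lifting of the artery without closure, so both groups carried the wound. The labels give cortex for sham mice and peri-ischemic cortex, the tissue around the lesion, for pMCAO mice, whereas the methods name peri-ischemic tissue for both and an age range that reaches above the labelled age. The brains were perfused before dissection. The deposited counts are named StrokeVehicle and ShamVehicle, so both groups are marked as vehicle, and the methods describe no vehicle given to these mice. The labels number the libraries as replicates and the series counts mice, and nothing states that tissue was pooled.

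A mature miRNA is a short RNA cut from a hairpin precursor, and it guides silencing of mRNAs that pair with its seed, bases 2 to 8. miR-1 and miR-133 are transcribed together in heart and skeletal muscle and act in muscle differentiation, and miR-206 is a skeletal muscle relative of miR-1. miR-122 is the dominant miRNA of hepatocytes and a common plasma marker of liver injury, and miR-192 and miR-194 are made from shared transcripts in gut, liver and kidney. miR-203 and miR-205 are miRNAs of skin and other stratified epithelia, and miR-375 is known from pancreatic islets and pituitary. Several of them are also carried in blood plasma.

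The mature sequences are shown because close relatives of the set differ by few bases, so read assignment matters for what each name counts. RefSeq held a mature sequence for 5 of the 9 miRNAs, with positions on GRCm38.p6, and the capitals mark the seed. miR-215-5p, a relative of miR-192-5p, is set beside it.
miR-192-5p: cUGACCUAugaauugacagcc
miR-215-5p: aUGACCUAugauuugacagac
miR-194-5p: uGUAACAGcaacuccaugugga
miR-206-3p: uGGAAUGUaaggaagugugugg
miR-203-3p: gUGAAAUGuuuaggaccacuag
miR-205-5p: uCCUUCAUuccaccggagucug

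miR-192-5p (chr19:6264857-6264877, plus strand) and miR-215-5p (chr1:185313610-185313630, plus strand) shared the seed UGACCUA and were identical at 18 of 21 positions. They differed by C1A, A12U and C20A, counted from the 5′ end with the base of miR-192-5p first. miR-194-5p was encoded by a pair of hairpins with the same mature sequence, at chr1:185313325-185313346 and at chr19:6264658-6264679, both on the plus strand. The first hairpin lay in an intron of the antisense transcript 2010103J01Rik and opposite an intron of Iars2, with Mir215 195 bases away, and the second lay 115 bases from Mir192 and overlapped no other annotated gene.

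miR-206-3p (chr1:20679055-20679076, plus strand) lay in an exon of the lincRNA Gm28653, and so did Mir133b, 3686 bases away. miR-203-3p (chr12:112130927-112130948, plus strand) overlapped no other annotated gene. miR-205-5p (chr1:193507503-193507524, minus strand) lay in an exon of the lincRNA 4631405K08Rik. For the muscle pair, Mir1a-1 (chr2:180389048-180389124) and Mir133a-2 (chr2:180398379-180398482) stood 9254 bases apart on the plus strand, and Mir375 was at chr1:74900658-74900721 on the minus strand. None of these 3 hairpins overlapped another annotated gene.

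The sham libraries held 1429037 to 2319810 miRNA counts and the pMCAO libraries 744877 to 1411620, so every pMCAO library was shallower. Levels are given as CPM (counts scaled to a common library size, with TMM factors), on which 3 counts, the limit that a count of 0 allows, stand for 1.50 to 2.18 CPM in sham and 1.94 to 3.54 CPM in pMCAO libraries. Brain miRNAs dominated both groups, with a summed level of miR-124-3p, miR-9-5p, miR-128-3p and miR-138-5p of 314187 to 401827 CPM in sham and 270684 to 319645 CPM in pMCAO. Sham replicate 1 stood apart by its erythrocyte miRNAs, which summed to 5370 CPM there against 49.1 to 272 CPM in the other sham libraries and 639 to 4731 CPM in pMCAO. Values that turn on it are therefore also given without that library.

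At least 1 count of each of the 9 miRNAs was found in every library. miR-1a-3p had the highest mean level in sham cortex and ranked 166 among the 1267 names with a count, followed by miR-203-3p at rank 198, miR-133a-3p at 199, miR-192-5p at 245, miR-194-5p at 279 and miR-205-5p at 321. The scarce members were miR-375-3p at rank 452, miR-122-5p at 513 and miR-206-3p at 545. Within each of the 6 sham libraries miR-1a-3p was above miR-203-3p, miR-133a-3p above miR-192-5p, miR-194-5p above miR-205-5p and miR-205-5p above miR-375-3p. The ranges of miR-133a-3p and miR-192-5p nevertheless overlapped slightly, between values from different libraries. The order was mixed for miR-203-3p and miR-133a-3p (3 of 6 libraries), miR-192-5p and miR-194-5p (5 of 6), miR-375-3p and miR-122-5p (4 of 6) and miR-122-5p and miR-206-3p (5 of 6), whose ranges also overlapped, so these neighbours were not separated beyond their spread. In pMCAO cortex the order of the means was the same, except that miR-203-3p, at 234 CPM, was level with miR-1a-3p, at 233 CPM, with overlapping ranges. By library, miR-1a-3p was above miR-203-3p in 2 of 5 and miR-133a-3p above miR-192-5p in 3 of 5. miR-375-3p was above miR-122-5p in 2 of 5 and miR-122-5p above miR-206-3p in 3 of 5. The remaining neighbours kept their order in 5 of 5.

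**Figure D1:**
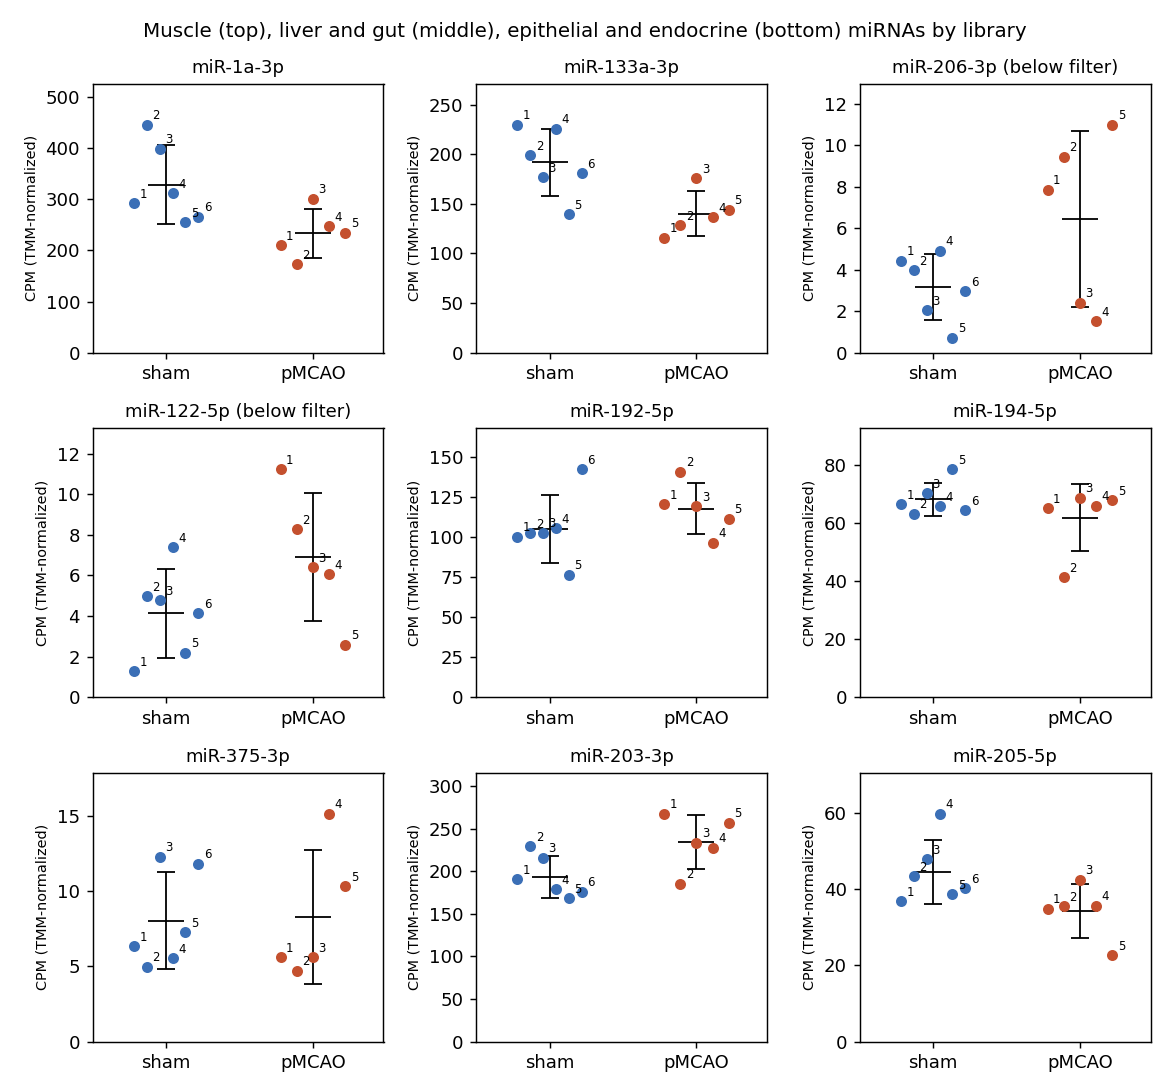
TMM-normalized CPM (vertical axis, from 0) of each of the 9 miRNAs in the 6 sham (blue) and 5 pMCAO (orange) libraries, with replicate numbers beside the points, the mean as a horizontal line and the SD as bars. For miR-1a-3p and miR-133a-3p the pMCAO points lie mostly below the sham points (means 233 against 328 and 140.2 against 192 CPM), for miR-203-3p mostly above (234 against 193 CPM), and in every panel the groups overlap.

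No member passed the test across all miRNAs. In edgeR's quasi-likelihood test, 0 of the 7 members that passed the filter on low counts had an adjusted p under 0.05, against 34 of the 479 miRNAs tested (7.10%, of which 4.38% higher and 2.71% lower in pMCAO). That split of 21 higher and 13 lower depended on the processing, with 43 and 1 on total counts alone, 23 and 4 on upper-quartile scaling, 25 and 8 without a filter and 15 and 3 when 10 or more counts were required in all libraries. At an unadjusted p under 0.05 there were 3 of the 7, against 117 of 479 (24.4%). They were miR-1a-3p and miR-133a-3p, with lower values in pMCAO (11.5% of all tested), and miR-203-3p, with a higher value (12.9% of all tested). DESeq2 also called 0 of the 7, with 2 of them at an unadjusted p under 0.05. In 4 of the 7 the log2 fold change was below 0, against 238 of 479 (49.7%), and their median log2 fold change was -0.13, with 0.00147 as the median over all tested. On TMM-scaled CPM the groups overlapped for each member, whereas 36 of 479 miRNAs (7.52%) had groups that did not overlap. Exact permutation over the libraries, two-sided and on the absolute difference of mean log2(CPM + 1), gave an unadjusted p under 0.05 for 4 of the 9 members, against 149 of the 1267 names (11.8%), and the smallest p that 6 against 5 libraries allow is 0.00216. The 1267 names include those that the filter on low counts removed, whereas these 4 members all passed it. That share is therefore not a like background for them, and the permutation share among the 479 was not counted.

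**Figure D2:**
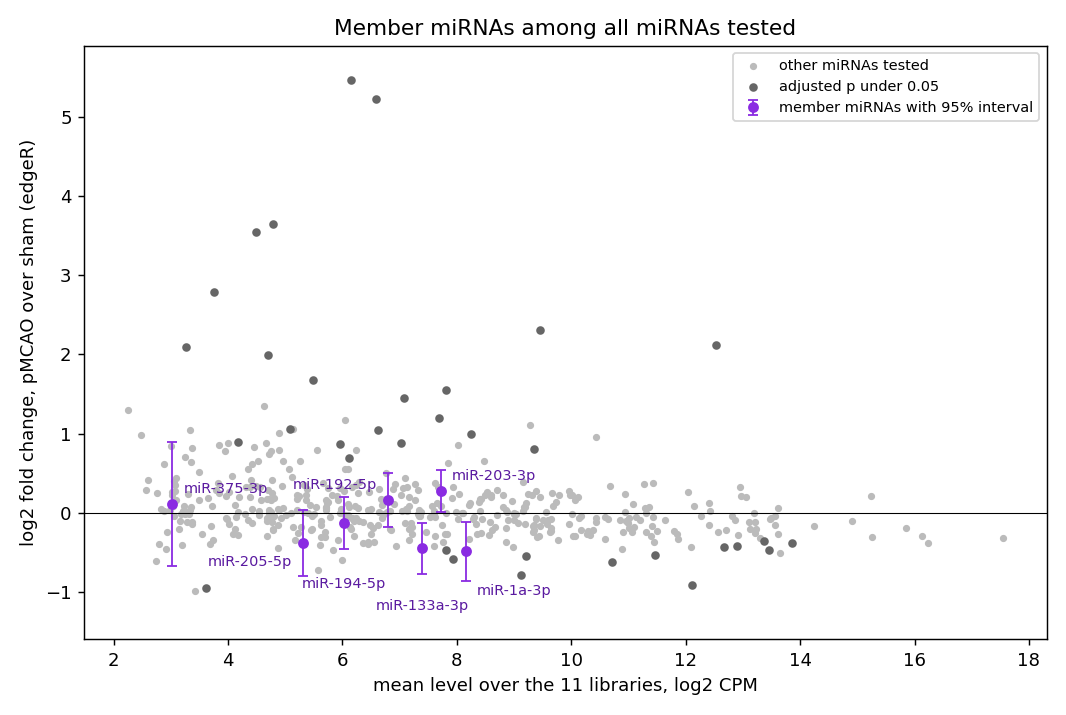
The edgeR log2 fold change of pMCAO over sham (vertical axis) against the mean level over the 11 libraries (horizontal axis, log2 CPM) for the 479 miRNAs tested, with the 7 members in purple with 95% intervals and the miRNAs of adjusted p under 0.05 in dark grey. The member with the largest fold change in size, miR-1a-3p at -0.49, sits well inside the spread of the other miRNAs, and the interval is widest for miR-375-3p, the scarcest member tested (-0.67 to 0.89).

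Both abundant muscle miRNAs had lower means in pMCAO cortex, at about the same ratio. miR-1a-3p was at 255 CPM in the lowest sham library, 302 at the median and 446 in the highest, and at 210.2, 174, 302, 247 and 235 CPM in pMCAO replicates 1 to 5. Of the pMCAO libraries, 4 were below the lowest sham library, and replicate 3 was within the sham range. Sham libraries averaged 328 ± 77.0 CPM (SD, n = 6) against 233 ± 47.3 CPM (SD, n = 5) after pMCAO, and the log2 fold change was -0.49 (SE 0.17, 95% interval -0.86 to -0.12, edgeR adjusted p = 0.109).

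miR-133a-3p, which is made from the same transcripts as miR-1a, was at 139.7, 190.0 and 229.9 CPM in the lowest, median and highest sham library. In pMCAO replicates 1 to 5 it was at 116, 129, 176, 136 and 144 CPM. There, 3 of 5 libraries were below the lowest sham library and all 5 below the sham median. Sham averaged 192 ± 33.8 CPM (SD, n = 6) against 140.2 ± 22.6 CPM (SD, n = 5) after pMCAO, and the log2 fold change was -0.45 (SE 0.15, 95% interval -0.78 to -0.13, edgeR adjusted p = 0.0921). The exact permutation p was 0.0195 for miR-133a-3p and 0.0325 for miR-1a-3p (adjusted over the 1267 names, 0.274 and 0.364). Without sham replicate 1 the fold changes were -0.38 and -0.51 on the log2 scale (edgeR adjusted p = 0.152 and 0.129). On total counts alone, which moved the median of all miRNAs tested to 0.18, they shrank to -0.28 (SE 0.16, edgeR p = 0.0943, unadjusted) and -0.31 (SE 0.15, edgeR p = 0.0583, unadjusted), and the exact permutation p rose to 0.115 and 0.0779. miR-133a-3p passed the threshold when sham replicate 5, its lowest sham library, was left out (-0.52, edgeR adjusted p = 0.0446), and when pMCAO replicate 3, its highest pMCAO library, was left out (-0.55, edgeR adjusted p = 0.0444).

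The ratio of miR-1a-3p to miR-133a-3p counts averaged 1.74 ± 0.436 in sham (SD, n = 6) against 1.66 ± 0.192 after pMCAO (SD, n = 5), and the ranges overlapped. Among sham libraries the ratio itself varied from 1.27 to 2.25, so this pair did not keep a fixed proportion even within a group. Each is also made from a further hairpin elsewhere in the genome, and the names of these 3p arms do not separate the hairpins. miR-133b-3p, a relative of miR-133a from the same lincRNA as miR-206, averaged 28.2 ± 6.86 CPM in sham (SD, n = 6) against 22.6 ± 7.81 CPM after pMCAO (SD, n = 5) (log2 fold change -0.30, SE 0.24, edgeR adjusted p = 0.523).

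miR-206-3p, the member most restricted to skeletal muscle, was near the limit of detection and was not tested by edgeR. Its counts in sham ran from 1 to 8 with a sum of 32 over 6 libraries, and those in pMCAO from 2 to 17 with a sum of 37 over 5. Its level was 0.728, 3.47 and 4.93 CPM in the lowest, median and highest sham library, and 7.87, 9.45, 2.40, 1.52 and 11 CPM in pMCAO replicates 1 to 5. The pMCAO libraries thus split, 3 above the highest sham library and 2 below the sham median. The means were 3.18 ± 1.59 CPM (SD, n = 6) and 6.45 ± 4.25 CPM (SD, n = 5), a difference of 0.69 in log2(CPM + 1) (exact permutation p = 0.208, adjusted 0.777). With no filter, edgeR gave a log2 fold change of 0.91 (SE 0.50, adjusted p = 0.437). The highest library, pMCAO replicate 5, rested on 17 counts, and the 1 count of sham replicate 5 has a 95% Poisson interval of 0.0253 to 5.57 counts.

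A further list of heart and skeletal muscle miRNAs gave no larger signal. miR-208b-3p, which lies in a myosin heavy chain gene, had 0 counts in all libraries, and miR-208a-3p, its cardiac relative, had 2 counts in sham and 0 in pMCAO over all libraries together. miR-499-5p, another miRNA of a myosin gene, averaged 9.34 ± 2.10 CPM in sham (SD, n = 6) against 9.07 ± 5.49 CPM after pMCAO (SD, n = 5) (log2 fold change 0.02, SE 0.34, edgeR adjusted p = 0.992). It was the 1 miRNA of the 3 on this list that passed the filter.

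The liver and gut miRNAs did not move together. miR-122-5p, the hepatocyte miRNA, was scarce in both groups, with 2 to 12 counts in sham libraries (41 in all) and 4 to 10 in pMCAO libraries (37 in all), and it was not tested by edgeR. It was at 1.27, 4.46 and 7.39 CPM in the lowest, median and highest sham library, and at 11.2, 8.27, 6.40, 6.07 and 2.59 CPM in pMCAO replicates 1 to 5. The pMCAO libraries were above the sham median except for replicate 5, and 2 of them were above the highest sham library.

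The means of miR-122-5p were 4.12 ± 2.18 CPM (SD, n = 6) and 6.91 ± 3.17 CPM (SD, n = 5), a difference of 0.64 in log2(CPM + 1) (exact permutation p = 0.156, adjusted 0.722), and edgeR without the filter gave a log2 fold change of 0.63 (SE 0.46, adjusted p = 0.525). Without pMCAO replicate 5 the difference was 0.90 (exact permutation p = 0.0429, unadjusted). miR-122-5p then passed the filter, with a log2 fold change of 0.90 (SE 0.42, edgeR adjusted p = 0.229). Sham replicate 1, the library with the highest erythrocyte sum, held the lowest miR-122-5p level of all 11 libraries, 1.27 CPM from 2 counts.

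miR-192-5p was at 76.4, 102 and 142 CPM in the lowest, median and highest sham library. In pMCAO replicates 1 to 5 it was at 120.3, 141, 119, 96.3 and 111 CPM. All pMCAO libraries lay within the sham range, which sham replicates 5 and 6 spread widely around 4 sham libraries close to 100 CPM. The log2 fold change was 0.16 (SE 0.16, 95% interval -0.18 to 0.50, edgeR adjusted p = 0.634), from means of 105 ± 21.1 CPM (SD, n = 6) and 118 ± 16.1 CPM (SD, n = 5). It was 0.083 without pMCAO replicate 2, 0.27 without sham replicate 6 and 0.33 on total counts alone, with no adjusted p under 0.05.

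miR-194-5p, the cluster partner of miR-192, was the steadiest member among sham libraries, with a coefficient of variation of 8.25%. It was at 63.3, 66.2 and 78.6 CPM in the lowest, median and highest sham library, and at 65.2, 41.3, 68.8, 66.0 and 67.9 CPM in pMCAO replicates 1 to 5. Only pMCAO replicate 2 lay below the sham range, from 35 counts. The log2 fold change was -0.13 (SE 0.15, 95% interval -0.46 to 0.20, edgeR adjusted p = 0.676), and without pMCAO replicate 2 it was -0.03 (SE 0.13, edgeR adjusted p = 0.950).

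The ratio of miR-192-5p to miR-194-5p counts averaged 1.56 ± 0.394 in sham (SD, n = 6) against 2.02 ± 0.787 after pMCAO (SD, n = 5). In pMCAO replicate 2 it reached 3.40, since miR-192-5p was at its highest pMCAO level there and miR-194-5p at its lowest. miR-215-5p, which shares the seed of miR-192-5p as the sequences above show, had 2 counts in all, both in the same sham library. Of a further list of liver and pancreas miRNAs, 0 of 4 passed the filter. The most abundant of them, miR-802-5p, averaged 3.78 ± 2.23 CPM in sham (SD, n = 6) against 1.30 ± 1.04 CPM after pMCAO (SD, n = 5), from 36 and 8 counts in all (exact permutation p = 0.0455, adjusted 0.408), with the lower mean in pMCAO, whereas that of miR-122-5p was the higher.

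Among the miRNAs of epithelia and endocrine cells, miR-203-3p and miR-205-5p differed in sign. miR-203-3p, a regulator of keratinocyte differentiation, was at 168, 185 and 229 CPM in the lowest, median and highest sham library, and at 267, 185, 234, 227 and 257 CPM in pMCAO replicates 1 to 5. The pMCAO levels were all above the sham median and 3 of 5 were above the highest sham library. Sham averaged 193 ± 24.3 CPM (SD, n = 6) against 234 ± 31.8 CPM (SD, n = 5) after pMCAO, and the log2 fold change was 0.28 (SE 0.12, 95% interval 0.01 to 0.55, edgeR adjusted p = 0.186, exact permutation p = 0.0476, adjusted 0.410).

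The size of that value turned on the scaling. With library totals alone, miR-203-3p had a log2 fold change of 0.46 (SE 0.11, edgeR adjusted p = 0.0258) and was the only member called, but the median of all miRNAs tested moved to 0.18 with it. On that scale its groups did not overlap (exact permutation p = 0.00216, unadjusted, the smallest possible). Under every other scaling, tool and filter run, with all 11 libraries in the fit, its adjusted p stayed above the threshold. Without sham replicate 1 the value was 0.29 (SE 0.14, edgeR adjusted p = 0.242, exact permutation p = 0.0556, unadjusted).

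miR-205-5p, which is expressed in basal cells of stratified epithelia, was at 36.7, 41.8 and 59.7 CPM in the lowest, median and highest sham library. In pMCAO replicates 1 to 5 it was at 34.8, 35.4, 42.4, 35.6 and 22.6 CPM. Of the pMCAO libraries, 4 lay below the lowest sham library, by small margins except in replicate 5. Sham averaged 44.4 ± 8.46 CPM (SD, n = 6) against 34.2 ± 7.15 CPM (SD, n = 5) after pMCAO, and the log2 fold change was -0.38 (SE 0.20, 95% interval -0.80 to 0.04, edgeR adjusted p = 0.248, exact permutation p = 0.0390, adjusted 0.398). Without pMCAO replicate 5 it was -0.24 (SE 0.18, edgeR adjusted p = 0.516, exact permutation p = 0.124), and on total counts alone -0.21 (SE 0.20, edgeR adjusted p = 0.552, exact permutation p = 0.316).

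miR-375-3p, a miRNA of islet and pituitary cells, showed no separation at this depth, with 9 to 20 counts in sham and 4 to 20 in pMCAO libraries. It was at 4.98, 6.80 and 12.3 CPM in the lowest, median and highest sham library, and at 5.62, 4.73, 5.60, 15.2 and 10.3 CPM in pMCAO replicates 1 to 5. The lowest and the highest of all 11 values were both in pMCAO libraries. The log2 fold change was 0.11 (SE 0.36, 95% interval -0.67 to 0.89, edgeR adjusted p = 0.942), and without pMCAO replicate 4 it turned to -0.21 (SE 0.38, edgeR adjusted p = 0.821).

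The ratio of miR-203-3p to miR-205-5p counts averaged 4.45 ± 0.821 in sham (SD, n = 6) against 7.23 ± 2.49 after pMCAO (SD, n = 5), and 4 of 5 pMCAO libraries were above the highest sham library. The ratio of miR-203-3p to miR-1a-3p counts averaged 0.600 ± 0.0653 in sham (SD, n = 6) against 1.03 ± 0.188 after pMCAO (SD, n = 5). No sham library reached a pMCAO library, with 0.661 in the highest sham and 0.775 in the lowest pMCAO library. A ratio within a library does not depend on its depth or scaling. Both ratios were chosen after the values were seen and carry no test. Of single miRNAs, 36 of 479 (7.52%) had groups that did not overlap in CPM. The share of ratios between miRNAs that separate the groups was not counted.

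Of a further list of epithelial miRNAs, the miR-200 family, 3 of 5 passed the filter and 0 of the 3 were called. Their log2 fold changes were -0.31 for miR-200a-3p (SE 0.49), 0.03 for miR-200b-3p (SE 0.45) and -0.04 for miR-429-3p (SE 0.54), with edgeR adjusted p of 0.776, 0.992 and 0.992. The family varied widely between libraries of a group, with a summed level of 59.3 to 274 CPM in sham and 47.2 to 203 CPM in pMCAO. The highest sums were in sham replicate 1 and pMCAO replicate 4. The scarce family members were miR-200c-3p, at 6.00 ± 5.69 CPM in sham (SD, n = 6) against 4.20 ± 2.53 CPM after pMCAO (SD, n = 5), and miR-141-3p, at 6.39 ± 5.68 against 5.42 ± 2.66 CPM. miR-204-5p, abundant in choroid plexus, had a log2 fold change of -0.33 (SE 0.14, edgeR adjusted p = 0.170).

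All 9 members together took 0.0893 ± 0.00790% of miRNA counts in sham libraries (SD, n = 6) against 0.0899 ± 0.00642% after pMCAO (SD, n = 5). Muscle miRNAs took 0.0493 ± 0.00630% in sham and 0.0405 ± 0.00602% in pMCAO, and the ranges overlapped. Liver and gut miRNAs took 0.0168 ± 0.00262% and 0.0199 ± 0.00149%, again with overlap. Epithelial and endocrine miRNAs took 0.0232 ± 0.00151% and 0.0295 ± 0.00258%. Here each pMCAO library was above each sham library, from 0.0206 to 0.0248% in sham and from 0.0256 to 0.0320% in pMCAO. Without TMM factors, however, values leaned upward in pMCAO well beyond these members. Scaled by total counts alone, the 479 miRNAs tested centred on 0.18 (median, log2 scale), and 43 of the 44 called were higher in pMCAO. How many single miRNAs separate the groups on raw shares was not counted. On TMM-scaled CPM the sums of the epithelial and endocrine miRNAs overlapped, 214 to 278 CPM in sham and 226 to 308 CPM in pMCAO. These sums were made mostly of miR-203-3p, miR-1a-3p, miR-133a-3p and miR-192-5p, and they are given as a description.

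**Figure D3:**
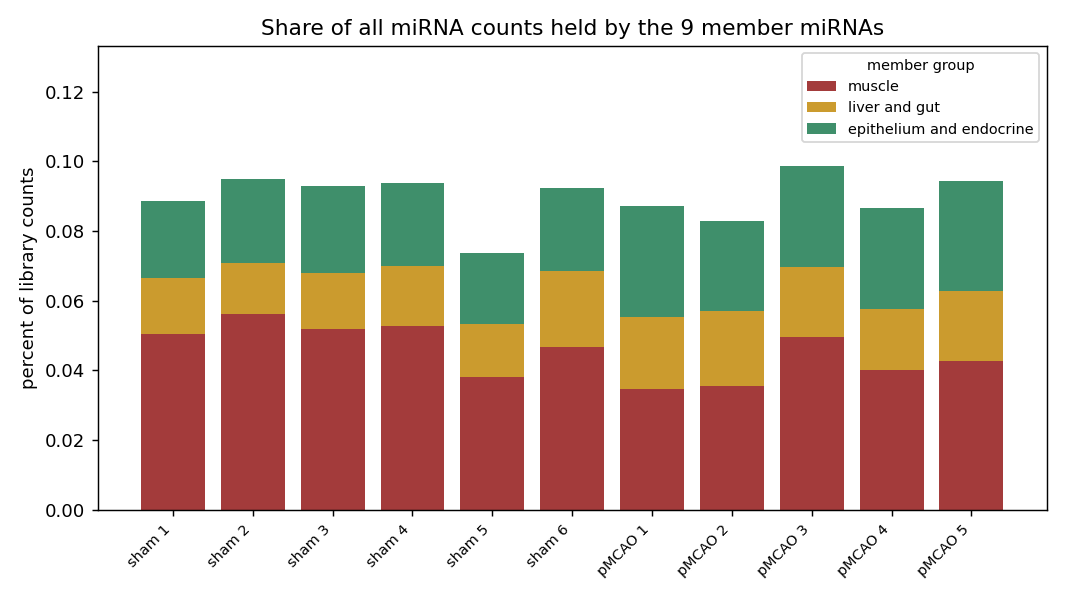
Percent of all miRNA counts (vertical axis, from 0) that the 9 members held in each of the 11 libraries, stacked by muscle, liver and gut, and epithelium and endocrine. The totals are alike in the groups (0.0893% on average in sham, 0.0899% in pMCAO), while the muscle section is shorter and the epithelium and endocrine section taller on average in pMCAO.

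The members were read from 1 arm of each hairpin in the main. The share of counts on the member's arm was 98.4% for miR-1a, 98.3% for miR-133a, 97.1% for miR-192, 99.8% for miR-194 and 99.0% for miR-203. For miR-206, miR-122, miR-375 and miR-205 the other arm had 0 counts in every library. None of the 11 other-arm names passed the filter on low counts. The most abundant were miR-192-3p, with 3.75 ± 1.93 CPM in sham (SD, n = 6) against 2.33 ± 1.22 CPM after pMCAO (SD, n = 5), and miR-1a-1-5p, with 3.01 ± 1.16 against 3.93 ± 3.10 CPM. Of 7 close relatives analysed, 1 passed the filter (miR-133b-3p). miR-1b-5p, from a relative of miR-1a, was at 4.33 ± 2.43 CPM in sham (SD, n = 6) against 1.61 ± 1.43 CPM after pMCAO (SD, n = 5), from 41 and 9 counts in all (exact permutation p = 0.0411, adjusted 0.398), and miR-1b-3p at 2.75 ± 1.55 against 2.16 ± 1.31 CPM (exact permutation p = 0.539).

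Blood and immune markers were set beside the members, since plasma and blood cells are possible carriers of small RNA. Erythrocyte miRNAs summed to 639 to 4731 CPM in pMCAO and to 49.1 to 272 CPM in 5 of 6 sham libraries, with sham replicate 1 at 5370 CPM, and with all libraries 0 of the 2 tested were called. That count turned on sham replicate 1. The red cell miRNA miR-451a had a log2 fold change of 0.96 with it (SE 1.08, edgeR adjusted p = 0.672, exact permutation p = 0.0476, adjusted 0.410) and of 3.85 without it (SE 0.63, edgeR adjusted p = 0.00227). Its cluster partner miR-144-3p had 1.17 with it (SE 0.97, edgeR adjusted p = 0.537) and 3.61 without it (SE 0.65, edgeR adjusted p = 0.00356). miR-144-5p, below the filter, averaged 8.39 CPM in sham, or 1.46 CPM without that library, against 16.7 CPM after pMCAO. miR-451a made up most of the erythrocyte sum, with 5111 of the 5370 CPM in sham replicate 1. miR-486a-5p (1.32 CPM in sham against 1.30 after pMCAO) and miR-486b-5p (0.311 against 0.441) showed no such rise, at no more than 4 counts a library. Without that library their exact permutation p was 0.619 and 0.762. With the same library left out, 0 of the 6 members still tested by edgeR were called, and miR-375-3p fell below the filter. Sham replicate 1, with the highest erythrocyte sum, had muscle (527 CPM), liver and gut (168 CPM) and epithelium and endocrine (234 CPM) sums within the range of the other sham libraries. In pMCAO, replicate 3 had the highest erythrocyte sum (4731 CPM) and also the highest muscle sum of its group (480 CPM). In pMCAO replicates 1, 2, 4 and 5 the erythrocyte sums were 1978, 1074, 639 and 1513 CPM. Their muscle sums were 334, 312, 385 and 390 CPM, which did not follow that order. The part of blood content in the members' differences was not tested.

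Of the leukocyte miRNAs, 3 of 4 rose. The myeloid miRNA miR-223-3p had a log2 fold change of 2.31 (SE 0.43, edgeR adjusted p = 0.00544), and the haematopoietic pair miR-142a-3p and miR-142a-5p had 1.55 (SE 0.29) and 1.46 (SE 0.28), with edgeR adjusted p of 0.00569 for each. These values were larger in size than that of any member tested. The summed level of the leukocyte list still overlapped, 2420 to 3715 CPM in sham and 3146 to 6358 CPM in pMCAO, since miR-150-5p made up most of it in sham. miR-150-5p, a lymphocyte miRNA, had -0.25 (SE 0.15, edgeR adjusted p = 0.370). Of the neuron miRNAs 0 of 4 were called, with a median log2 fold change of -0.21, and of the mural and endothelial miRNAs 0 of 3, with a median of -0.05 (miR-143-3p -0.04, miR-145a-5p -0.22, miR-126a-3p -0.05). The neuron miRNAs had -0.32 (miR-124-3p, edgeR adjusted p = 0.0523), -0.39 (miR-128-3p), -0.10 (miR-9-5p) and 0.21 (miR-138-5p). How far the makeup of cell types contributed to the members' differences was not tested. In bulk tissue, fewer cells of a type and less RNA per cell cannot be told apart.

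**Figure D4:**
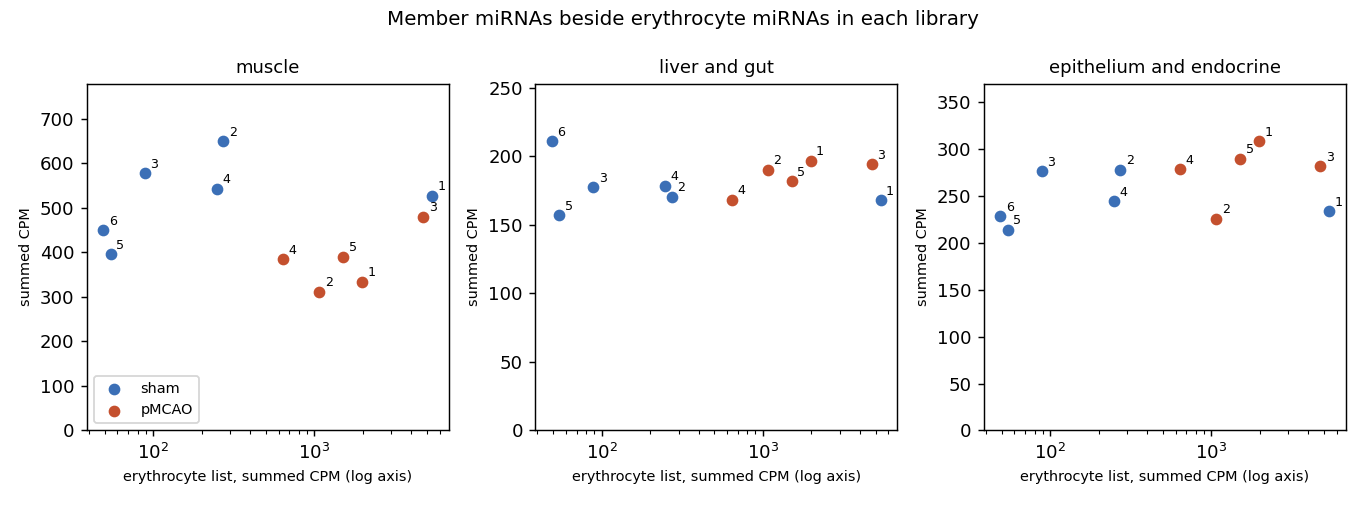
Summed CPM of the muscle, liver and gut, and epithelium and endocrine members (vertical axes, from 0) against the summed CPM of 5 erythrocyte miRNAs (horizontal log axis) in the 6 sham (blue) and 5 pMCAO (orange) libraries, with replicate numbers. Sham replicate 1 and pMCAO replicate 3 are the libraries richest in erythrocyte miRNAs (5370 and 4731 CPM). The muscle sum of sham replicate 1 (527 CPM) lies within the sham range of 396 to 649 CPM. That of pMCAO replicate 3 (480 CPM) is the highest of its group, with 312 to 390 CPM in the others. Among those others the muscle sums do not follow the order of the erythrocyte sums.

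The 3 miRNAs whose levels tracked each member most closely were picked by Pearson's r of log2(CPM + 1) deviations from the group means over the 11 libraries, among the 479 miRNAs tested and for the 7 members with a median count of at least 10. For miR-1a-3p they were miR-6516-5p (r = 0.83, Spearman's rho = 0.89, with as few as 2 counts in a library), miR-101a-3p (r = 0.83, rho = 0.77) and miR-34a-3p (r = 0.77, rho = 0.75). For miR-133a-3p they were miR-188-5p (r = 0.86, rho = 0.79), miR-7047-3p (r = 0.86, rho = 0.84) and miR-99a-3p (r = 0.82, rho = 0.75). The muscle pair thus did not lead each other's list. For miR-192-5p they were miR-7224-3p (r = 0.86, rho = 0.56, with as few as 8 counts in a library), miR-92a-3p (r = 0.83, rho = 0.59) and miR-3102-3p.2-3p (r = 0.82, rho = 0.71, with as few as 1 count in a library). For miR-194-5p they were miR-28a-5p (r = 0.89, rho = 0.71), miR-185-5p (r = 0.81, rho = 0.74) and miR-873a-5p (r = 0.74, rho = 0.45). The members of this cluster did not lead each other's list either.

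For miR-203-3p the closest were miR-101b-3p (r = 0.84, rho = 0.91), miR-384-5p (r = 0.79, rho = 0.72) and miR-136-5p (r = 0.79, rho = 0.87). For miR-205-5p they were miR-150-5p (r = 0.82, rho = 0.66), the lymphocyte miRNA above, miR-221-5p (r = 0.82, rho = 0.62) and miR-497a-3p (r = 0.79, rho = 0.84). For miR-375-3p, at few counts, they were miR-103-1-5p (r = 0.75, rho = 0.85, with as few as 6 counts in a library), miR-181a-5p (r = 0.63, rho = 0.64) and miR-181d-5p (r = 0.62, rho = 0.66). No member was among the closest 3 of another. The libraries share differences in depth and composition and each r is the highest of many, so these values are a description.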

How the data were processed

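Small RNA libraries from 6 sham and 5 pMCAO mice were sequenced on an Ion Torrent instrument. The authors length-filtered the reads, checked them with FastQC, mapped them to mm10 with Bowtie and counted them on miRBase annotation with HTSeq, and deposited 1 table of raw counts per library, without normalization. How reads matching several hairpins were assigned is not given in the sources used here, which touches miR-1a, miR-133a and miR-194.

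Groups were taken from the sample labels. The miRNAs and the lists were chosen with earlier results of these data known. In R 4.3.3, edgeR 4.0.16 filtered the names (filterByExpr, minimum count 10, minimum total count 15), scaled them by TMM and tested all 479 left with glmQLFit and glmQLFTest, without covariates and with Benjamini-Hochberg adjustment. The threshold was an adjusted p of 0.05. The SE was taken as the fold change on the log2 scale over the root of the F statistic. Levels of single miRNAs were compared by exact permutation over 462 arrangements on log2(CPM + 1). Alternatives were other scalings and filters, DESeq2 1.42.0, edgeR's robust fit, the replicate number as a block, merged relatives, another threshold and leaving out each library. Erythrocyte values without sham replicate 1 were added after seeing the data. The scripts were tested on simulated counts. No libraries were duplicates: the lowest chi-square per degree of freedom over 25 pairs was 18.0.

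The text names all members, list miRNAs with at least 10 counts in a library, and the 3 miRNAs most like each member. The ratios, and miR-208a-3p, miR-208b-3p, miR-215-5p, miR-486a-5p and miR-486b-5p among scarcer names, were chosen after their values were seen. Positions are from RefSeq (GRCm38.p6) and GENCODE (GRCm38). Reads carry no molecular identifiers, so the Poisson interval covers counting error only.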

Additional observations from a re-analysis of the deposited data

Results flagged for a closer look

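A library far from the others of its group, by Dixon's criterion, was found in 5 of the 84 groups of values checked, where chance gives about 1 in 20, or 4.2. miR-194-5p in pMCAO replicate 2 had a log2(CPM + 1) of 5.40, against 6.05 to 6.12 in the other pMCAO libraries. The ratio of miR-192-5p to miR-194-5p counts was 3.40 in the same library, against 1.46 to 1.84 in the others, and rests on the same miR-194-5p value. The liver and gut miRNAs took 0.0219% of counts in sham replicate 6, while the other sham libraries held 0.0147 to 0.0173%. miR-1b-3p, a relative of miR-1a-3p, was at 0 in pMCAO replicate 1 on the log2(CPM + 1) scale, against 1.71 to 2.18 in the other pMCAO libraries. That 0 is within the detection limit, since 3 counts stand for 3.37 CPM in that library and the other values rest on 3 or 4 counts each. The erythrocyte miRNA miR-451a was at 12.3 on the same scale in sham replicate 1, and the other 5 lay at 5.45 to 7.98.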

How the results depend on the processing

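The count of 34 miRNAs called over all 479 was 18 when 10 or more counts were required in all libraries, 57 at an adjusted p under 0.1, and 16 to 36 when single libraries were left out (16 without sham replicate 3 and also without pMCAO replicate 2, 19 without sham replicate 2 or sham replicate 4, 20 without sham replicate 6, 21 without pMCAO replicate 5). With the replicate block it was 22 (19 higher and 3 lower), with 0 members called and 2 at an unadjusted p under 0.05. Same-numbered libraries correlated from -0.077 to 0.23 and over 0.1 in 3 of 5 pairs, as did 6 of 25 differently numbered pairs, and 1 of 5 pMCAO libraries correlated best with its own number. Since not every same-numbered pair was over 0.1, the numbers were not taken to pair the libraries. That was a choice, and so few pairs cannot show whether the numbers mark pairs or a shared batch. The count of members called was 1 with total counts alone (miR-203-3p), 1 at an adjusted p under 0.1 (miR-133a-3p), and 0 to 1 on leaving out single libraries, 1 being miR-133a-3p without sham replicate 5 or pMCAO replicate 3. On TMM-scaled CPM the log2 ratio of pMCAO over sham was 0.073 for liver and gut and 0.17 for epithelium and endocrine, against 0.24 and 0.35 for raw shares. Total counts alone turned miR-194-5p to 0.033 in edgeR and 0.013 in the permutation difference. miR-375-3p turned to -0.21 in edgeR without pMCAO replicate 4, and its permutation difference, -0.01, turned to 0.14 on total counts and ran from -0.24 to 0.14 on leaving out single libraries. The causes were not tested. miR-1a-3p (-0.60 to -0.37) and miR-133a-3p (-0.55 to -0.38) kept their sign in the 11 leave-one-out fits, each at an unadjusted edgeR p under 0.05. On total counts alone they also kept it, at -0.31 and -0.28, but with that p above 0.05. The exact permutation p stayed under 0.05 in 7 of the 11 leave-one-out runs for miR-1a-3p, 10 for miR-133a-3p, 3 for miR-203-3p and 4 for miR-205-5p. At this depth, miR-122-5p, miR-206-3p and miR-375-3p, with 1 to 20 counts a library, allowed only wide intervals.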
